A study of Mus musculus with 7 samples.

Results

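The genes of VEGF and angiopoietin signalling comprised 10 of the 53465 genes in the EMT6 count table: the ligands Vegfa, Vegfb, Vegfc and Pgf, their receptors Kdr and Flt1, the ligands Angpt1 and Angpt2, and the receptors Tek and Tie1. They were taken by name, and all 10 passed the filter on low counts. The EMT6 cell line derives from a mammary carcinoma of the mouse and was implanted orthotopically in the mammary fat pad of female Balb/c mice of 6 to 8 weeks. RNA was sequenced from 3 EMT6-P tumors of mice given control IgG, from 3 EMT6-PTR tumors that resumed growth under αPD-L1 (Clone 80), and from 1 metastasis of the resistant group. The antibodies were given at 250 μg per mouse every 3 days until institutional endpoint, and the labels write PDR where the paper writes PTR. No transgene or deletion was named for any group. The labels give the metastasis as breast tumor tissue and do not name its organ. They list each tumor as a separate sample without stating that each came from its own mouse, and the paper's figure notes call replicates technical where nothing else is stated. The p-values therefore measure the spread between these samples, which may be technical.

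VEGF-A binds 2 tyrosine kinase receptors on endothelial cells, KDR (VEGFR2), which carries most of the signal for vessel growth, and FLT1 (VEGFR1), which also exists as a soluble form that traps the ligand. PGF and VEGF-B bind FLT1 only, and VEGF-C acts chiefly on lymphatic endothelium through FLT4. ANGPT1, made by mural and other stromal cells, activates the receptor TEK (TIE2) and keeps vessels quiescent, whereas ANGPT2, made by endothelial cells, antagonizes it in many settings. TIE1 is a companion receptor that modulates TEK. In tumors, low oxygen raises VEGFA transcription through HIF proteins.

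Total estimated counts per library were between 20430110 and 25213472. Expression is given below as CPM, the count of a gene scaled to a common library total with upper-quartile factors, with libraries in the order of their replicate numbers, which carry no rank. Values of a gene sum all of its isoforms, so soluble and membrane Flt1 could not be separated, nor could the splice forms of Vegfa. EMT6-PTR replicate 3 stood apart from the other tumors in its summed tissue markers. The 8 fibroblast markers summed to 20916 CPM there, against 5707 to 9204 CPM in the other 5 tumors. The 7 carcinoma epithelial markers summed to 615 CPM against 2386 to 2732 CPM, and the keratin Krt8 made up most of each of these sums. In that library 4 of the 7 carcinoma markers were below all EMT6-P tumors and 0 above, beside 42.7% and 39.8% of all genes. EMT6-PTR replicate 1 had 4314 CPM of 8 skeletal muscle markers, against 14.1 to 670.1 CPM in the EMT6-P tumors and 6.25 and 9.13 CPM in the other EMT6-PTR tumors. EMT6-PTR replicate 2 spent 13.8% of its counts on CT010467.1, a share of 0.442% to 1.35% elsewhere among the tumors. The endothelium on which these receptors sit was present in every tumor, with Pecam1 between 37.8 and 60.9 CPM. The 18 endothelial markers summed to 327 to 382 CPM in EMT6-P and 382 to 426 CPM in EMT6-PTR tumors. Of these sums, the endothelial gene Mmrn2 gave 10.7 to 15.5 CPM in EMT6-P and 23.2, 93.6 and 98.5 CPM in EMT6-PTR tumors. By log2 fold change, 9 of the 18 markers were higher and 9 lower in EMT6-PTR tumors. In these bulk samples, a change in the number of endothelial cells and a change in RNA per endothelial cell cannot be told apart.

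Upstream sequences were read for 3 members: Vegfa, the most abundant ligand of EMT6-P tumors, and Tek and Flt1, the receptors that differed most in the metastasis. Each is the stretch of 250 bases before the RefSeq start, 5′ to 3′ on the strand of the gene, in assembly GRCm38.p6: chr17:46032378-46032627 on the minus strand for Vegfa, chr4:94739039-94739288 on the plus strand for Tek and chr5:147726012-147726261 on the minus strand for Flt1. Capitals mark the core of the hypoxia response element (ACGTG or GCGTG) and an ETS core (AGGAAG or CGGAAG), the motif of a factor family active in endothelial cells, on either strand.
Vegfa: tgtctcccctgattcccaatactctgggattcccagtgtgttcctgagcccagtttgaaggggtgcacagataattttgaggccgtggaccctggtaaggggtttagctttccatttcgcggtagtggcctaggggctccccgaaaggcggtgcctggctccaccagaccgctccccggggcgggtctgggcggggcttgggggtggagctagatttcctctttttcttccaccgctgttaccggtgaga
Tek: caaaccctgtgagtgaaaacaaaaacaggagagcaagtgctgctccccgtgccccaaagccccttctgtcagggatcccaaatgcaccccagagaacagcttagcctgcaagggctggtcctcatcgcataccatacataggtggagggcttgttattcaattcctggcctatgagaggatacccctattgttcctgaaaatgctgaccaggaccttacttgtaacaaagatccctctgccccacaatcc
Flt1: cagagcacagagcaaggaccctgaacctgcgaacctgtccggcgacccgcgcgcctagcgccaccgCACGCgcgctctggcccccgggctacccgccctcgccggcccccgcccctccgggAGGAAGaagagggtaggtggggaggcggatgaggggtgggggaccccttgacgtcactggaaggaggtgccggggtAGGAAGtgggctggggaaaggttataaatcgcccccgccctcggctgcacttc
The Flt1 stretch held 1 hypoxia core, starting 184 bases before the start, and 2 ETS cores, starting 129 and 53 bases before it. The Vegfa and Tek stretches held neither motif. Of the 8 members in the table of promoters, 5 held a hypoxia core in at least 1 of their windows (Flt1, Kdr, Pgf, Vegfa at an alternative start, and Vegfb) and 2 held an ETS core (Flt1 and Tie1). For Vegfa that window, chr17:46025164-46025413, lies inside the gene and not upstream of it. Counted by window, 5 of their 10 windows held a hypoxia core and 2 an ETS core, beside 38.6% and 39.2% of all 32851 promoter windows of this length. These matches are letters only, and binding was not measured.

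EMT6-PTR tumors were first compared with EMT6-P tumors. The 10 genes gave no difference that passed the test. None had an adjusted p under 0.05 (edgeR's quasi-likelihood test, Benjamini-Hochberg over all genes), as was so for 0% of the 15645 genes tested, and 0 of the 281 genes that DESeq2 called was a member. At an unadjusted p under 0.05 there were 2 members, Angpt1 and Vegfb, beside 11.4% of all genes. One member, Angpt1, was at least 2-fold higher in the fit, beside 6.27% of all genes, and none was at least 2-fold lower, beside 1.29%. For no member did all 3 EMT6-PTR tumors lie above all 3 EMT6-P tumors, which held for 9.52% of genes, or below them, which held for 11.8%. The median log2 fold change of the 10 members was 0.28, against 0.03 over all genes.

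**Figure D1:**
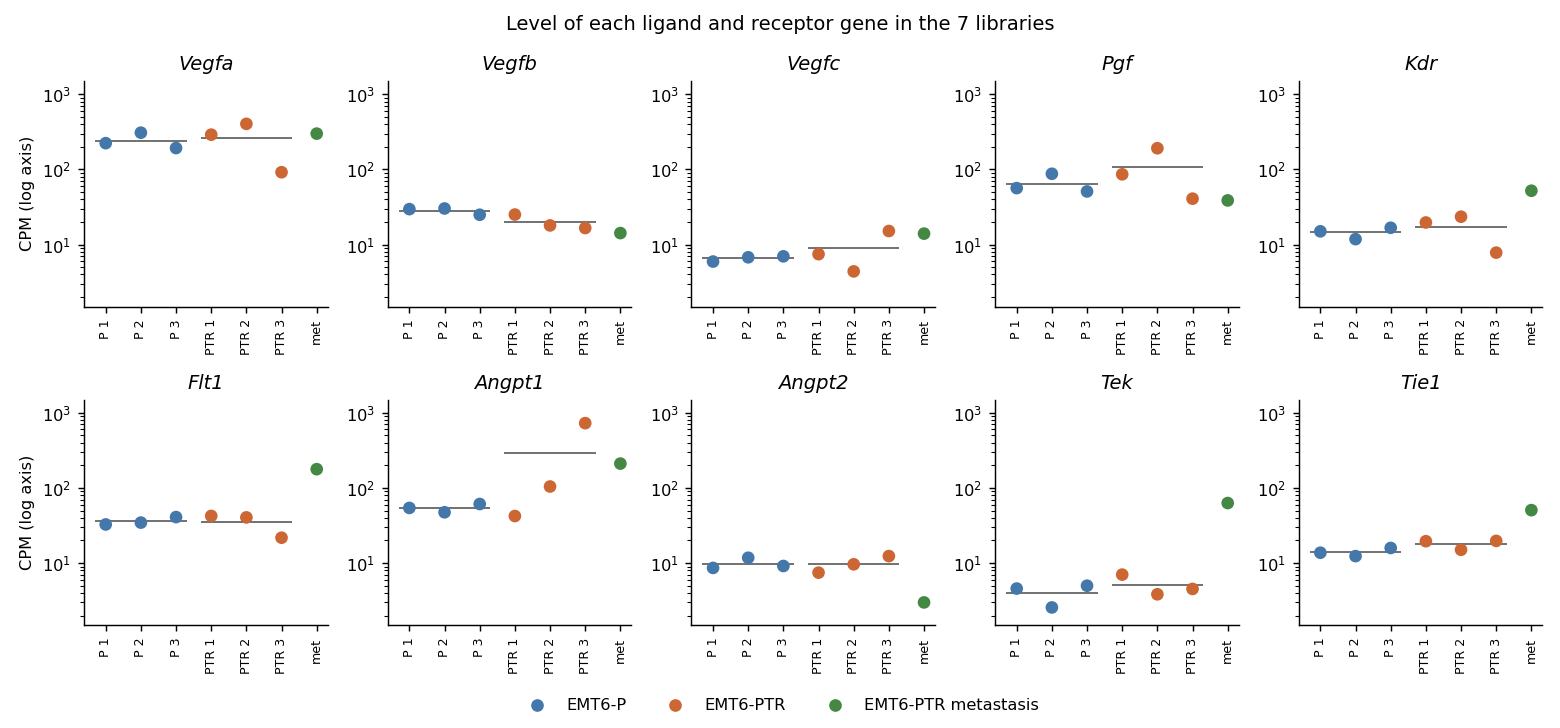
CPM of each of the 10 genes (log axis) in the 3 EMT6-P tumors, the 3 EMT6-PTR tumors and the metastasis, with group means as lines. The groups of tumors overlap for every gene, and the metastasis lies above all tumors for Kdr, Flt1, Tek and Tie1.

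Vegfa (chr17:46016993-46032369, minus strand), the main hypoxia-driven ligand of KDR, was the most abundant of the 10 genes per length of exon in EMT6-P tumors. It was at 224, 308 and 192 CPM in EMT6-P and at 290.2, 404 and 91.8 CPM in EMT6-PTR tumors. The EMT6-PTR tumors thus held both the highest and the lowest value, on either side of all EMT6-P tumors. The group means were 241 ± 59.9 and 262 ± 158 CPM (SD, n = 3 each), and the log2 fold change was 0.12 ± 0.51 (SE, adjusted p = 0.938 in edgeR). Without EMT6-PTR replicate 3 it was 0.52 ± 0.24, and without EMT6-PTR replicate 2 it was −0.33.

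Pgf (chr12:85166635-85177790, minus strand), placental growth factor, was at 56.4, 87.6 and 50.9 CPM in EMT6-P and at 86.1, 191 and 40.8 CPM in EMT6-PTR tumors. It ranked the 6 tumors in the same order as Vegfa (Spearman's rho = 1.00, Pearson's r = 0.87 on log2 CPM, and 0.99 without the 2 tumors farthest from the median of Vegfa), a description over 6 tumors of different tissue makeup. Its log2 fold change was 0.71 ± 0.54 (adjusted p = 0.603 in edgeR). It was 1.09 ± 0.37 without EMT6-PTR replicate 3 (adjusted p = 0.197, the lowest of a leave-one-out range up to 0.976) and −0.029 without EMT6-PTR replicate 2, so that this value rested on single tumors.

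Vegfb (chr19:6982473-6987651, minus strand), a ligand of FLT1 linked more to fatty acid handling than to vessel sprouting, was at 29.6, 30.2 and 25.0 CPM in EMT6-P and at 25.1, 18.0 and 16.6 CPM in EMT6-PTR tumors. The groups overlapped at EMT6-P replicate 3 and EMT6-PTR replicate 1 alone. The log2 fold change was −0.51 ± 0.20 (unadjusted p = 0.0419, adjusted p = 0.433 in edgeR), and it lay between −0.71 and −0.39 when each tumor was left out in turn.

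Vegfc (chr8:54077606-54187096, plus strand), the lymphatic ligand, was low at 5.95, 6.77 and 6.98 CPM in EMT6-P and at 7.46, 4.40 and 15.2 CPM in EMT6-PTR tumors. Its highest value was in EMT6-PTR replicate 3, the tumor with the highest summed level of fibroblast markers. The log2 fold change of 0.46 ± 0.45 (adjusted p = 0.678 in edgeR) was −0.14 without that tumor.

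Both VEGF receptors differed by less than the spread between tumors. Kdr (chr5:75932827-75978458, minus strand) was at 15.0, 11.8 and 16.7 CPM in EMT6-P and at 19.7, 23.5 and 7.81 CPM in EMT6-PTR tumors, with a log2 fold change of 0.23 ± 0.40 (adjusted p = 0.832 in edgeR). EMT6-PTR replicates 1 and 2 lay above all EMT6-P tumors and replicate 3 below them. Without replicate 3 the log2 fold change was 0.57 ± 0.18 (adjusted p = 0.182, the lowest of a leave-one-out range up to 0.969). Flt1 (chr5:147561604-147726011, minus strand) was at 32.7, 34.6 and 40.9 CPM in EMT6-P and at 42.4, 40.5 and 21.8 CPM in EMT6-PTR tumors, with a log2 fold change of −0.05 ± 0.27 (adjusted p = 0.951). EMT6-PTR replicate 3 was again the lowest of the 6 tumors. The mean log2 CPM of the 18 endothelial markers was 3.59 there, within the EMT6-P range of 3.42 to 3.74. Relative to this mean, Kdr was at −0.60 in that tumor, against 0.16 to 0.34 in EMT6-P tumors. Flt1 was at 0.86 against 1.46 to 1.70. In EMT6-PTR replicates 1 and 2 Kdr was at 0.49 and 0.87, and Flt1 at 1.59 and 1.65. The cause was not tested.

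Angpt1 (chr15:42424723-42676977, minus strand), the activating ligand of TEK, had the widest range of the 10 genes. It was at 54.2, 47.4 and 61.1 CPM in EMT6-P and at 42.3, 104 and 728 CPM in EMT6-PTR tumors. One EMT6-PTR tumor lay below all EMT6-P tumors and the others above them, replicate 3 by far. The group means were 54.2 ± 6.83 and 291 ± 379 CPM (SD, n = 3 each). The log2 fold change was 2.43 ± 0.99 (unadjusted p = 0.0471, adjusted p = 0.437 in edgeR), 1.44 in limma-voom and 0.43 without EMT6-PTR replicate 3. Angpt1 and Vegfa are also among the candidate secreted genes listed by the study, which drew on RNA-seq and protein assays of this model, so the listing is not independent evidence of a direction.

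The tumor with the high Angpt1 value was also the one with the high fibroblast values. Dcn, the matrix proteoglycan decorin, was at 3345 CPM in EMT6-PTR replicate 3 against 32.2 to 104 CPM in the other tumors, Col3a1, a fibrillar collagen chain, at 9088 against 734 to 1998 CPM, and Pdgfra, a fibroblast receptor tyrosine kinase, at 345 against 31.2 to 61.7 CPM. Of the 8 fibroblast markers, 6 were above all EMT6-P tumors in this library, 1 was below (Thy1, 6.68 CPM against 63.2 to 114) and Col1a1 was within their range, beside 39.8% of all genes above and 42.7% below all EMT6-P tumors in this library. The carcinoma keratin Krt8 was lowest there, at 505 CPM against 1685 to 1898 CPM. Over the 6 tumors the median Pearson's r of Angpt1 with the fibroblast markers was 0.94, and it was 0.06 without the 2 tumors farthest from the median of Angpt1 (EMT6-PTR replicates 2 and 3), so this relation rests on those tumors. Whether the tissue makeup of this tumor accounts for Angpt1 was not tested. Pdgfra, Krt8 and Thy1 were named after their values were seen.

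**Figure D2:**
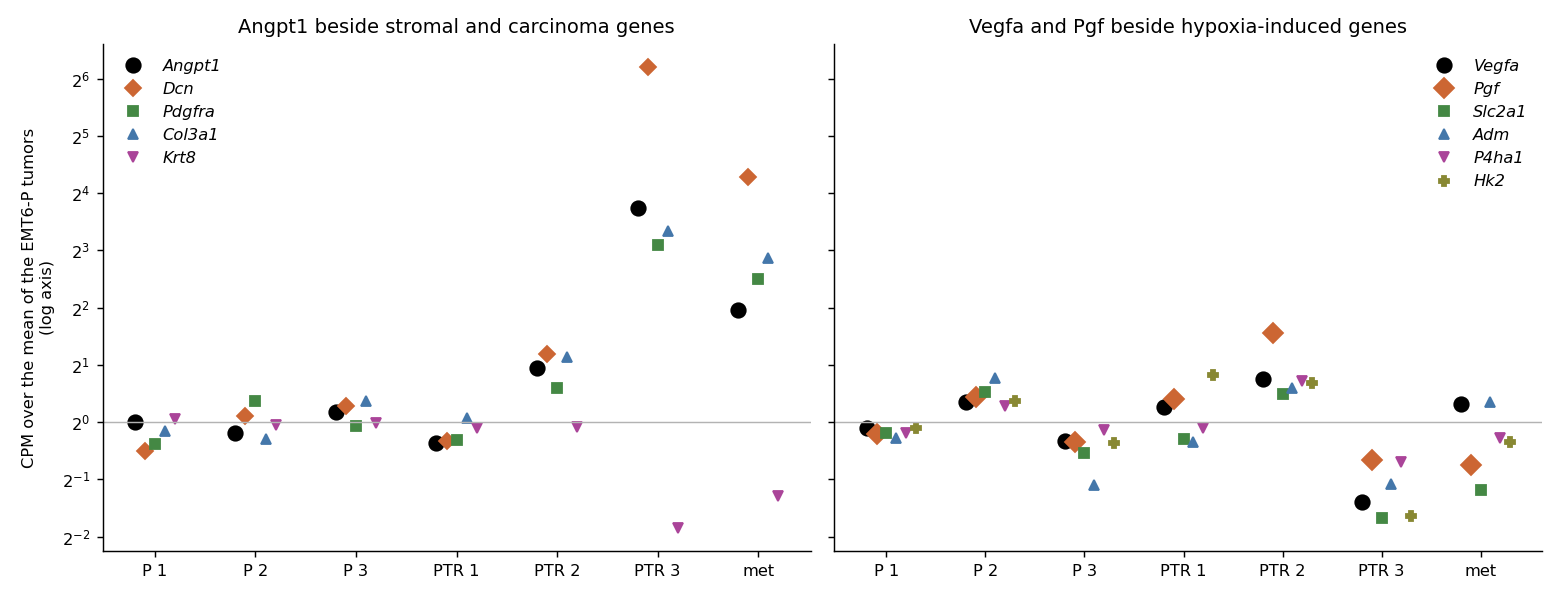
CPM of each gene divided by its mean in the 3 EMT6-P tumors (log axis), by library. The left panel shows Angpt1 with 3 fibroblast genes and the keratin Krt8. The right panel shows Vegfa and Pgf with Slc2a1, Adm, P4ha1 and Hk2, 4 of the 16 hypoxia-induced genes, not taken by smallest p. Of those 16 genes, 3 were above and 8 below all EMT6-P tumors in EMT6-PTR replicate 3, beside 39.8% and 42.7% of all genes. Angpt1 and the fibroblast genes are highest in EMT6-PTR replicate 3, where Vegfa, Pgf and Krt8 are lowest among the tumors.

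Angpt2 (chr8:18690263-18741562, minus strand), the endothelial antagonist, was at 8.63, 11.8 and 9.15 CPM in EMT6-P and at 7.46, 9.64 and 12.4 CPM in EMT6-PTR tumors. The group means were 9.85 ± 1.69 and 9.83 ± 2.47 CPM (SD, n = 3 each), and the log2 fold change was within 0.01 of 0 (SE 0.26, adjusted p = 0.997 in edgeR). Tek (chr4:94739289-94874976, plus strand), the angiopoietin receptor, was the least abundant member per length of exon in EMT6-P tumors, at 4.58, 2.57 and 5.00 CPM in EMT6-P and at 7.03, 3.84 and 4.53 CPM in EMT6-PTR tumors (log2 fold change 0.34 ± 0.38, adjusted p = 0.713). Tie1 (chr4:118471191-118490061, minus strand), its companion receptor, was at 13.7, 12.4 and 15.9 CPM in EMT6-P and at 19.5, 15.0 and 19.7 CPM in EMT6-PTR tumors. For Tie1 the highest EMT6-P tumor exceeded only the lowest EMT6-PTR tumor, and its log2 fold change was 0.37 ± 0.19 (unadjusted p = 0.0935, adjusted p = 0.48). Leaving out any 1 tumor gave values from 0.29 to 0.49.

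**Figure D3:**
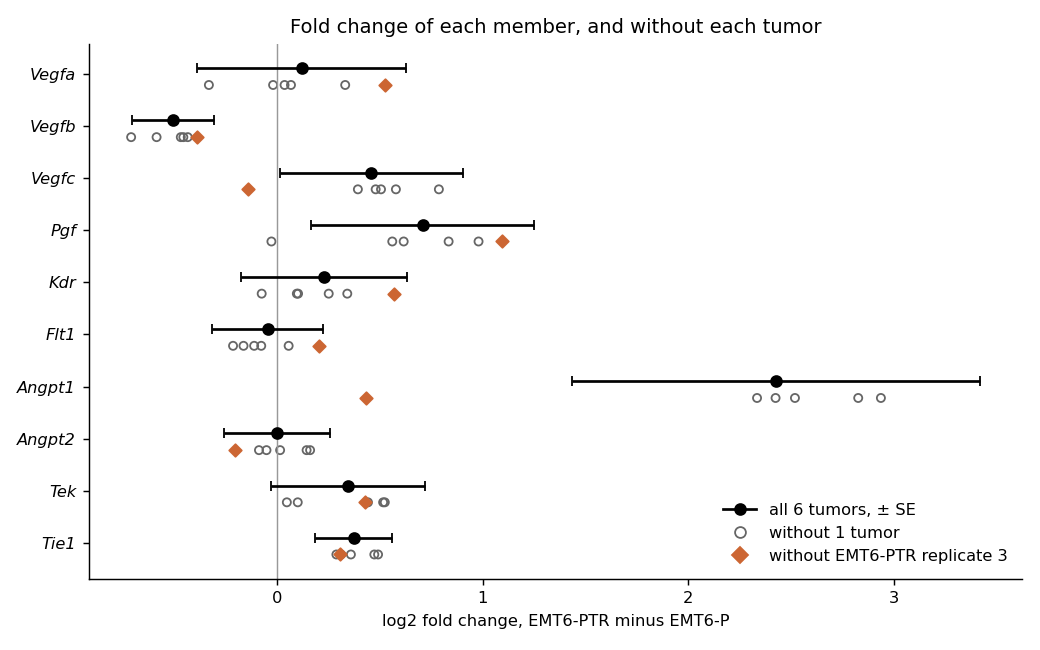
Log2 fold change of EMT6-PTR against EMT6-P tumors for each gene, with its SE (black), and the same with 1 tumor left out (open circles, or a diamond where EMT6-PTR replicate 3 was left out). Without that tumor Angpt1 moves from 2.43 to 0.43 and Pgf from 0.71 to 1.09, while Tie1 and Vegfb keep their sign throughout.

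Per kilobase of exon, the order of the genes in EMT6-P tumors was Vegfa (56.4 ± 14.0 CPM per kb, SD, n = 3), Pgf (22.4 ± 6.80), Vegfb (17.6 ± 1.80), Angpt1 (10.4 ± 1.31), Tie1 (2.85 ± 0.36), Vegfc (2.68 ± 0.22), Flt1 (2.67 ± 0.32), Angpt2 (2.67 ± 0.46), Kdr (1.61 ± 0.28) and Tek (0.86 ± 0.28). The values of Pgf and Vegfb overlapped between tumors, as did those of Tie1, Vegfc, Flt1 and Angpt2 between neighbours in this order, and the other neighbours did not overlap. The VEGF ligands other than Vegfc and the ligand Angpt1 were thus each above every receptor in these units. In EMT6-PTR tumors Angpt1 averaged 56.0 ± 72.8 CPM per kb, from 8.12 to 139.8, and Vegfa 61.2 ± 36.9.

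Ratios within a library do not depend on its scaling, and 3 of them were compared between the groups with exact two-sided permutation tests, which cannot go below p = 0.1 for 3 against 3 tumors. Pgf relative to Vegfa, both ligands of FLT1, was at log2 ratios of −1.99, −1.82 and −1.92 in EMT6-P and −1.75, −1.08 and −1.17 in EMT6-PTR tumors. All 3 EMT6-PTR tumors lay above all EMT6-P tumors, with a difference of 0.57 (exact permutation p = 0.1, adjusted p = 0.30 over the 3 ratios) that stayed between 0.45 and 0.78 with any tumor left out. The smallest gap between the groups, that between EMT6-P replicate 2 and EMT6-PTR replicate 1, was narrower than the spread within the EMT6-PTR tumors. Angpt2 relative to Angpt1 was at −2.64, −2.002 and −2.73 in EMT6-P and −2.49, −3.43 and −5.87 in EMT6-PTR tumors, a difference of −1.47 (exact permutation p = 0.3, adjusted p = 0.40) that was −0.50 without EMT6-PTR replicate 3. Flt1 relative to Kdr was at 1.12, 1.54 and 1.29 in EMT6-P and 1.10, 0.78 and 1.47 in EMT6-PTR tumors, a difference of −0.20 (exact permutation p = 0.4, adjusted p = 0.40).

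**Figure D4:**
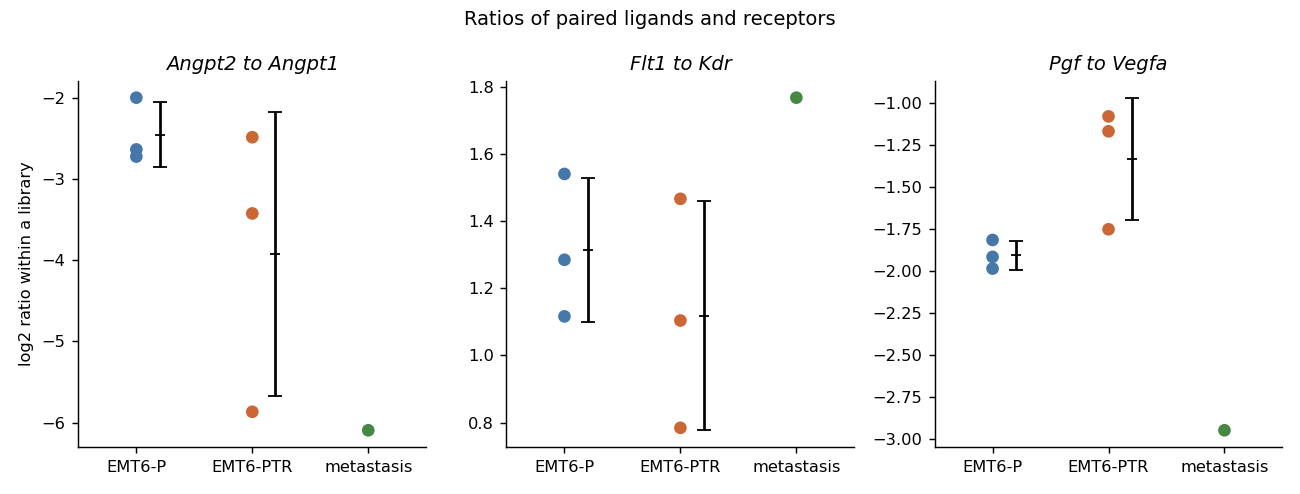
Log2 ratio of Angpt2 to Angpt1, of Flt1 to Kdr and of Pgf to Vegfa in each library, with the mean and SD of the 3 EMT6-P and 3 EMT6-PTR tumors. Of the 3 ratios, Pgf to Vegfa is the one whose groups of tumors do not overlap, and the metastasis lies below all tumors for 2 ratios and above them for Flt1 to Kdr.

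Of 19 other genes of these pathways, 14 were higher and 5 lower in EMT6-PTR tumors, with a median log2 fold change of 0.26. None passed the test. Ptprb, the endothelial phosphatase VE-PTP that dephosphorylates TEK, had the smallest p of this list. It was at 9.21, 8.60 and 10.9 CPM in EMT6-P and at 16.2, 16.8 and 21.6 CPM in EMT6-PTR tumors. The groups did not overlap, and the log2 fold change was 0.93 ± 0.20 (unadjusted p = 0.00267, adjusted p = 0.421 in edgeR). Epas1, which encodes HIF-2α, was next, at 25.7, 21.3 and 21.2 CPM against 34.2, 28.2 and 31.5 CPM, again without overlap (log2 fold change 0.46 ± 0.15, adjusted p = 0.427). Together with Vhl, the ubiquitin ligase subunit that marks HIF proteins for degradation, these were the 3 genes of the list with all EMT6-PTR tumors above all EMT6-P tumors. Dok2, an adaptor downstream of TEK, was the 1 gene with all of them below. These 3 and 1 of 19 genes stand beside 9.52% and 11.8% of all genes. Vhl and Dok2 were named after their values were seen.

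The 10 endothelial genes known to respond to VEGF were split evenly, 5 higher and 5 lower, with a median log2 fold change of −0.02. Esm1, a marker of sprouting tip cells, was at 1.75, 3.83 and 1.89 CPM in EMT6-P and at 4.06, 8.58 and 1.64 CPM in EMT6-PTR tumors, highest in the tumor with the most Vegfa (log2 fold change 0.93 ± 0.65, adjusted p = 0.575 in edgeR). Kcne3, a potassium channel subunit, had a log2 fold change of −0.57 ± 0.70 (adjusted p = 0.742), with its lowest value, 1.05 CPM, in EMT6-PTR replicate 3. In that tumor 8 of the 10 genes were below all EMT6-P tumors, beside 42.7% of all genes, and Vegfa and Kdr were lowest there too. Other lists were low there as well. Of the 10 pericyte and mural markers 7 were below and 3 above all EMT6-P tumors. Of the 19 other pathway genes 10 were below and 7 above. Whether Vegfa or Kdr bears on the VEGF-responsive genes was not tested.

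Vegfa and Pgf were also set beside the hypoxia program. Of 16 hypoxia-induced genes, 10 were higher and 6 lower in EMT6-PTR tumors, with a median log2 fold change of 0.06. Pfkfb3, a regulator of glycolysis, had the smallest p, at 24.5, 30.6 and 22.1 CPM in EMT6-P and 47.3, 49.3 and 39.0 CPM in EMT6-PTR tumors (log2 fold change 0.81 ± 0.18, adjusted p = 0.421 in edgeR). Kdm3a, a histone demethylase, followed with 0.41 ± 0.19 (adjusted p = 0.452). Across the 6 tumors the median Pearson's r of Vegfa with the 16 genes was 0.60, with 6 of them at 0.8 or more (37.5%, against 13.0% of all other genes tested). Without the 2 of 6 tumors farthest from the median of Vegfa the median was 0.76, for which no median over all genes was taken. The median r of Vegfa was as high with other lists. It was 0.72 with 7 carcinoma markers (42.9% at 0.8 or more) and 0.66 with 10 pericyte and mural markers (50%). Without those 2 tumors these medians were −0.21 and 0.17. What Vegfa followed was not tested. For Pgf the median with the hypoxia genes was 0.61, with 5 genes at 0.8 or more (31.2%, against 4.15% of all genes). Slc2a1, the glucose transporter GLUT1, was at 331, 545 and 259 CPM in EMT6-P and 309, 532 and 118 CPM in EMT6-PTR tumors, and was named after its values were seen. These points share library scaling and tissue makeup, and the correlations are descriptions.

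The 18 endothelial markers were split 9 and 9, with a median log2 fold change of 0.02. Mmrn2, an endothelial matrix protein, was at 10.7, 13.3 and 15.5 CPM in EMT6-P and at 23.2, 93.6 and 98.5 CPM in EMT6-PTR tumors (log2 fold change 2.45 ± 0.54, adjusted p = 0.421 in edgeR), while Ecscr, an endothelial surface protein, had a log2 fold change of −0.36 ± 0.13 (adjusted p = 0.427). Mmrn2 is also on the study's list of candidate secreted genes. Of 10 pericyte and mural markers, the usual source of Angpt1 around vessels, 8 were higher and 2 lower (median log2 fold change 0.41). Over the 6 tumors their median Pearson's r with Angpt1 was −0.71, though 3 of the 10 were at 0.8 or more. Leaving out EMT6-PTR replicates 2 and 3 gave a median r of −0.42. Angpt1 peaked in EMT6-PTR replicate 3, where 7 of these markers lay below every EMT6-P tumor and 3 lay above. Whether mural cells bear on the level of Angpt1 was not tested. Ndufa4l2, a mitochondrial protein of pericytes that is also induced by hypoxia, was at 4.19, 4.30 and 3.07 CPM against 9.29, 24.1 and 44.0 CPM (log2 fold change 2.74 ± 0.56, adjusted p = 0.421), and Notch3, the mural Notch receptor, had 1.25 ± 0.38 (adjusted p = 0.421). Of the 8 fibroblast markers 7 were higher, with a median of 1.75, led by Dcn (4.67 ± 1.69, adjusted p = 0.427) and Col3a1 (2.15 ± 0.81, adjusted p = 0.431), both again on the study's list.

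Among the other tissue lists, the platelet chemokine Pf4 had the smallest p, at 38.1, 47.3 and 20.6 CPM in EMT6-P and 13.1, 9.91 and 5.16 CPM in EMT6-PTR tumors (log2 fold change −1.91 ± 0.44, adjusted p = 0.421 in edgeR), and it is on the study's list of lowered secreted genes, which is not independent evidence. The second platelet gene by p, Gp1bb, went the other way at 0.75 ± 0.69 (adjusted p = 0.663). The lymphatic markers Lyve1 (0.78 ± 0.42) and Pdpn (−0.33 ± 0.24), the macrophage markers Mrc1 (−0.35 ± 0.33) and C1qb (−0.15 ± 0.16) and the adipocyte genes Fabp4 (0.69 ± 0.30) and Pnpla2 (0.88 ± 0.46) had adjusted p of 0.444 or more. All 8 skeletal muscle markers were higher in the fit, with Myh1 at 4.93 ± 2.82 and Mylpf at 1.99 ± 2.04, which came from EMT6-PTR replicate 1 (Myh1 at 647 CPM there and under 0.05 CPM in the other EMT6-PTR tumors). Of the carcinoma markers, Krt8 had −0.48 ± 0.44 and Krt14 −0.75 ± 0.95. Of the lung lists, the alveolar gene Ager had 3.08 ± 0.74 (adjusted p = 0.421) at levels of at most 26.1 CPM, and Napsa (0.71 ± 0.51), the airway genes Foxj1 (−0.52 ± 0.57) and Tppp3 (−0.02 ± 0.31) and the capillary genes Tbx2 (1.35 ± 0.81) and Ednrb (−0.15 ± 0.17) had adjusted p of 0.528 or more. None of these genes passed the test.

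The metastasis was then set beside the tumors. It is 1 library without a replicate, so that no test was made. Its 4 receptor genes were the highest of all libraries, and 3 ligand genes were the lowest. The 4 genes above all 6 tumors were Kdr, Flt1, Tek and Tie1, beside 20.9% of all genes tested that lay above, and the 3 below were Vegfb, Pgf and Angpt2, beside 24.1% that lay below. The same 4 receptors were at least 2-fold above the mean of the EMT6-PTR tumors on the log2 scale, beside 12.4% of all genes, and Pgf and Angpt2 at least 2-fold below it, beside 8.58%.

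Tek differed most, at 62.9 CPM against 2.57 to 7.03 CPM in the tumors, 3.64 above the EMT6-PTR mean in log2 CPM. Flt1 was at 178 CPM against 21.8 to 42.4 CPM (2.41), Kdr at 52.1 against 7.81 to 23.5 CPM (1.76) and Tie1 at 50.6 against 12.4 to 19.7 CPM (1.49). Angpt2 was at 3.00 CPM, from 75 counts, against 7.46 to 12.4 CPM in the tumors, a log2 difference of −1.65. Pgf was at 38.7 CPM, just below the lowest tumor at 40.8 CPM, and Vegfb at 14.2 CPM against 16.6 CPM. Vegfa (299 CPM), Vegfc (14.0 CPM) and Angpt1 (211 CPM) lay within the range of the tumors. Without EMT6-PTR replicate 3, Vegfc and Angpt1 lay above the other 5 tumors as well, which made 6 members above in place of 4. The log2 ratio of Angpt2 to Angpt1 was −6.09, below the tumors, that of Pgf to Vegfa was −2.95, also below, and that of Flt1 to Kdr was 1.77, above them.

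Endothelial and lung genes were high in the same library. Of the 18 endothelial markers, 15 were above all 6 tumors, 1 (Emcn) below, and their sum was 1796 CPM against 327 to 426 CPM. All 8 lung alveolar and all 6 lung airway markers were above all tumors, summing to 6396 and 3147 CPM against 10.4 to 39.7 and 4.07 to 7.37 CPM. Sftpc, the surfactant protein of alveolar type 2 cells, was at 2348 CPM and Scgb1a1, the secretoglobin of club cells, at 3007 CPM, both at most 1.07 CPM in any tumor. Of 8 lung capillary markers 6 were above all tumors, among them Car4 at 38.4 CPM against at most 0.85 CPM. How much of the receptor signal came from lung tissue in this sample was not tested, and with 1 library the site and the growth as a metastasis cannot be told apart. Sftpc, Scgb1a1, Car4 and Emcn were named after their values were seen.

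The receptors were also set beside the endothelial markers of the same library. Relative to the EMT6-P mean, the endothelial markers were higher in the metastasis by a median of 2.67 in log2 CPM, from −1.17 to 5.57. Kdr (1.85), Tie1 (1.85) and Flt1 (2.30) were each higher than EMT6-P by less than this median, whereas Tek (3.98) exceeded 17 of the 18 markers. Ptprb, the phosphatase of TEK, likewise exceeded 17 markers, at 178 CPM against 8.60 to 21.6 CPM in the tumors and 4.21 above the EMT6-P mean. Relative to the EMT6-PTR mean, Tek exceeded 15 markers and Ptprb 14. Angpt2 (−1.67) was below all 18 markers. Epas1 was at 652 CPM against 21.2 to 34.2 CPM. Among VEGF-responsive genes 5 of 10 were above all tumors and 2 below, beside 20.9% and 24.1% of all genes. The latter were Kcne3, at 0.84 CPM, and Nid2, a basement membrane protein, at 6.11 CPM, which was named after its values were seen.

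**Figure D5:**
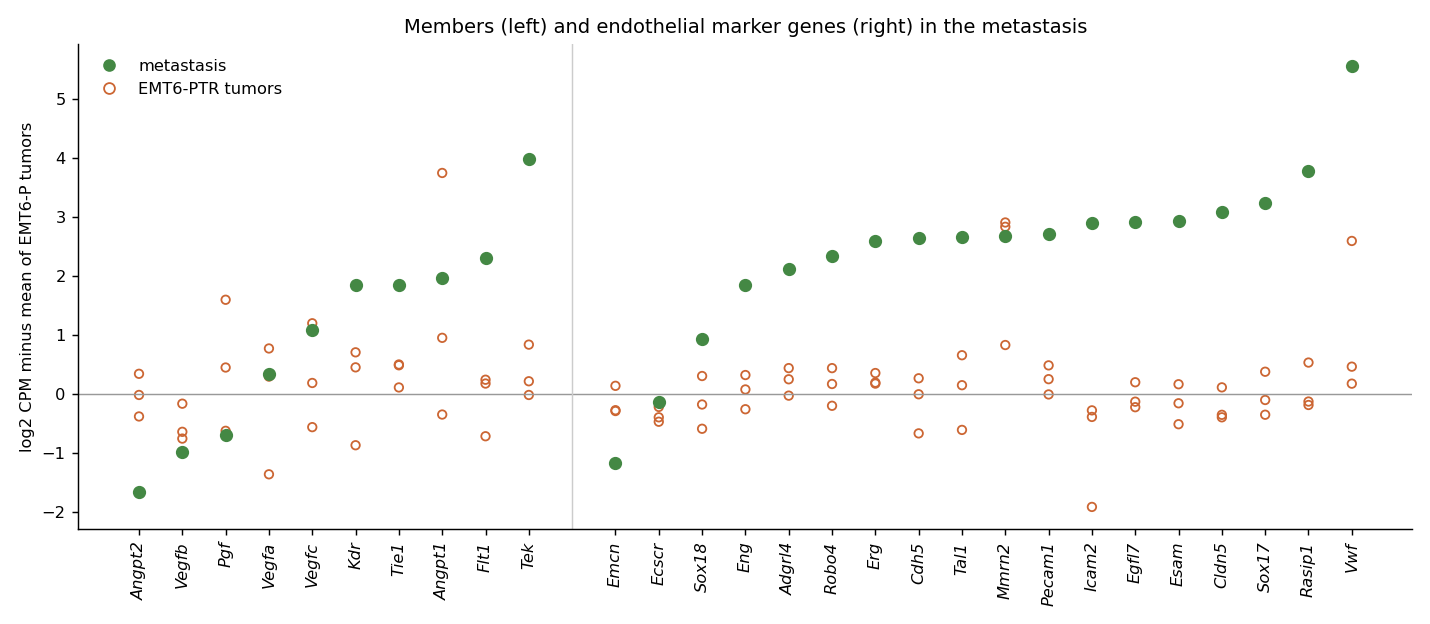
Log2 CPM minus the mean of the 3 EMT6-P tumors for the 10 members (left) and the 18 endothelial markers (right), with the metastasis filled and the 3 EMT6-PTR tumors open. Tek lies at 3.98 and Angpt2 at −1.67 in the metastasis, while most endothelial markers lie between 1.85 and 3.78.

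The genes whose levels followed 4 of the members most closely over the 6 primary tumors were sought among 15644 others, by Pearson's r of log2 CPM. For Vegfa they were Piga, Soat1 and Lonrf3 (r = 0.995 each), with 0.97, 0.98 and 0.96 without the 2 tumors farthest from the median of Vegfa. For Kdr they were Man1a (0.999), Tpra1 (0.995) and the pericyte gene Higd1b (0.992), with 0.996, 0.976 and 0.983 without those tumors. For Angpt1 they were St3gal3 (0.999), Ank (0.998) and Ngly1 (0.998), with 0.95, 0.94 and 0.95 without those tumors. For Angpt2 they were Vps41 (0.97), Fgfr1op (0.97) and Epb41l1 (0.96), with 0.98, 0.99 and 0.93 without the farthest tumors. Spearman's rho was 0.83 to 1.00 for these 12 genes. They were picked by r over these same tumors, so the values without 2 tumors are no independent check. Higd1b held only 8 to 17 counts per tumor and Lonrf3 was at 0.70 to 2.06 CPM, where counting error is large. With 6 points, 13 genes reached 0.95 or more with Angpt2, 108 with Kdr, 209 with Vegfa and 597 with Angpt1, so that the nearest gene was one of many. The top genes shared tumors of high and low value, and in particular Ank, a pyrophosphate transporter, had its highest level with Angpt1 in EMT6-PTR replicate 3, at 1099 CPM against 60.5 to 146 CPM.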

How the data were processed

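The authors sequenced stranded libraries of polyadenylated RNA from 7 samples: 3 tumors of each group and 1 metastasis. According to the paper's methods and the submitters' processing notes, reads were checked with FastQC 0.11.5, aligned with STAR 2.6.0a to GRCm38 with the GENCODE M16 annotation, and quantified with RSEM 1.3.1. The deposited values are RSEM expected counts per gene, unfiltered and not normalized. Symbols, found for 53274 of 53465 genes, and positions came from GENCODE M21, a later annotation of that assembly, and exon lengths are the union of exons. Promoter windows came from RefSeq (GRCm38.p6), where 8 of the 10 members were matched.

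Expected counts were rounded, filtered with filterByExpr, scaled with upper-quartile factors and fitted in edgeR 4.0.16 under R 4.3.3. The quasi-likelihood F test (glmQLFTest) was adjusted by Benjamini-Hochberg over all genes tested, at a threshold of 0.05. The SE of a log2 fold change is its size over the square root of F. Log2 CPM used a prior count of 2. Ratios were compared by exact permutation over 20 arrangements. Alternatives were TMM scaling, DESeq2 1.42.0, limma-voom (limma 3.58.1), no low-count filter, at least 10 counts in every tumor, the metastasis in the fit, a replicate block, a prior count of 0.5 and leaving out each tumor. The fits were tested on simulated counts. Named genes were the 10 members, up to 2 genes of smallest p from each list, and the 3 genes most like each of 4 members. The members and lists were chosen with earlier results of these data known. At 20430110 to 25213472 counts per library, a gene at 0 could hold up to 3 counts, a limit that covers counting error only.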

Additional observations from a re-analysis of the deposited data

How the results depend on the processing

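With upper-quartile scaling edgeR called 0 genes (1786 at an unadjusted p under 0.05), as did TMM, limma-voom, both other filters, the fit with the metastasis and every fit without 1 tumor, whereas DESeq2 called 281 genes, 138 up and 143 down. No member was called under any of these settings, and the lowest adjusted p of Angpt1 was 0.097, in DESeq2. The number of members changed at least 2-fold was 1 in every fit, but the gene was Pgf (1.09) and not Angpt1 (0.43) without EMT6-PTR replicate 3.

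The log2 fold change of Angpt2 was 0.020 under TMM, 0.019 in DESeq2, 0.0046 without a low-count filter and 0.011 with at least 10 counts per tumor, all on the other side of 0 from its main value. That of Vegfa was −0.086 in limma-voom. When each tumor was left out, the log2 fold change ran from −0.33 to 0.52 for Vegfa, −0.14 to 0.79 for Vegfc, −0.029 to 1.09 for Pgf, −0.076 to 0.57 for Kdr, −0.22 to 0.20 for Flt1, −0.21 to 0.16 for Angpt2 and 0.43 to 2.94 for Angpt1, and only Vegfb, Angpt1, Tek and Tie1 kept their sign throughout. The cause of these reversals was not tested.

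The ratios kept their direction under every setting run. In the metastasis, the difference from the EMT6-PTR mean ran from −0.19 (without EMT6-PTR replicate 3) to 0.87 (without replicate 2) for Vegfa and from −0.39 (without replicate 1) to 1.66 (without replicate 3) for Angpt1, where all 3 tumors gave 0.44 and 0.51, and kept its sign for the other 8 members.

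Samples with the same replicate number deviated together with correlations of 0.26, 0.25 and 0.04, so the numbers were not taken to pair the samples. With the replicate block edgeR called 0 genes, the log2 fold change of Vegfa was −0.091 and that of Angpt1 1.41, and the Pgf to Vegfa difference had an exact sign-flip p of 0.25, the smallest possible. Replicates 1 and 2 correlated best with their own number and EMT6-PTR replicate 3 with EMT6-P replicate 2. The number of members above all tumors in the metastasis was 6 in place of 4 without EMT6-PTR replicate 3. Tek had the lowest CPM of the 10 genes in each tumor, at 2.57 to 7.03, and so the fewest counts.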
